A study of Mus musculus with 12 samples.

Results

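Homeobox genes outside the Hox clusters were followed in mouse embryonic stem (ES) cells that lack the Polycomb proteins Ring1B, Eed or both. The set held 53 named genes of the Alx, Dlx, Irx, Lhx, Msx, Nkx, Otx and related families, taken by the gene symbol that the array's platform annotation gives to a probe set. The rule itself uses no measured value, but the genes were listed with earlier results of these data known. All 53 were on the array, with 84 probe sets in all, out of 18193 genes that could be named. RNA was measured on Affymetrix mouse expression arrays in 4 genotypes with 3 biological replicates each. The groups were wild type ES cells, Ring1B deficient cells and Eed deficient cells, both single mutants made by gene targeting, and Ring1B/Eed double deficient cells, a line in which Ring1B was targeted in cells that already lacked Eed. The sample titles give the genotype and name no line or clone, so a difference between genotypes also holds any difference between lines. All cells were kept undifferentiated as judged by colony morphology, and the sources used here do not give the culture conditions.

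A homeobox encodes the homeodomain, a DNA-binding fold, and the genes that carry it include many of the transcription factors that give embryonic cells their place along the body axis and their fate. Polycomb proteins form 2 main complexes. Eed is a core part of Polycomb repressive complex 2, which methylates lysine 27 of histone H3, and Ring1B, encoded by Rnf2, is the ubiquitin ligase of Polycomb repressive complex 1, which modifies histone H2A. In ES cells developmental regulators, homeobox genes among them, are well-known targets of both complexes and are largely silent.

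Levels are MAS5 signals, linear intensities in arbitrary units for which every array had been scaled to a trimmed mean of 100. Changes are differences of log2(signal + 5), so that for low signals they understate the ratio. A gene was called when the limma model over all 12 arrays gave it a p under 0.05 after Benjamini-Hochberg adjustment across 18193 genes, and every adjusted p below comes from that model. "Rose" and "fell" are used for called genes. Probe sets differ in how strongly they bind their target, so levels of different genes are not compared.

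Eed itself gave a signal of 1428 ± 159 on the wild type arrays, 1642 ± 283 on the Ring1B deficient arrays, 37.8 ± 13.1 where Eed had been targeted and 71.2 ± 21 in the double mutant (SD, n = 3). Rnf2 gave 851 ± 124, 468 ± 65.7, 779 ± 168 and 383 ± 18.8 in the same order, and the sources used here do not say which part of the gene was deleted, so a remaining signal says nothing about the protein. Of the dimmer Rnf2 probe sets, 1 gave 632, 330, 531 and 275, 1 gave 29.9, 60.2, 22.3 and 38.5, and the others stayed at 19.4 or below, as did the second Eed probe set at 18 or below. All 12 ES cell markers lay above the array's 40th percentile on all 12 arrays, and 7 of the 12 fell in double deficient cells, among them Pou5f1, Nanog and Sox2 (-0.82, -0.80 and -0.71). The summed signal of 17 primitive and visceral endoderm markers was 741 to 889 in wild type, 4101 to 5789 in Ring1B deficient, 5349 to 9264 in Eed deficient and 8558 to 9760 in double deficient cells. That of 10 trophoblast markers was 703 to 1346, 1493 to 2989, 3644 to 5987 and 4738 to 7665. That of 15 neural markers was 3104 to 3475 in wild type and 1599 to 2107 in double deficient cells, where 2 of the 15 rose, 3 fell and the median log2 change was 0.16, opposite in sign to the change of the sum. That of 20 fibroblast and feeder cell markers was 1303 to 1537 in wild type, 1082 to 1519 in Ring1B deficient and 5324 to 5781 in double deficient cells, and the Eed deficient arrays split into 1983, 2139 and, for replicate 3, 5444. None of these lists contains a member of the set, and their part in the results below was not tested. In bulk RNA, more cells of a type and more RNA per cell cannot be told apart.

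In wild type cells most of the set had low signals. The 40th percentile of an array, used here as the mark of a low signal, lay between 12.1 and 19.1, and between 29 and 32 of the 53 members were below it on each wild type array, against 16 to 22 on Ring1B deficient, 19 to 23 on Eed deficient and 13 to 18 on double deficient arrays. The number of members above that percentile on all 3 arrays was 16 in wild type and 31 in double deficient cells. Clear signals in wild type were few, and included Otx2 at 324 ± 96, Six4 at 215 ± 29.6, Pou3f1 at 199 ± 132, Gbx2 at 130 ± 136, Hhex at 73.9 ± 12.3 and Irx3 at 45.4 ± 4.18 (SD, n = 3). At the other end, 9 members did not pass the 40th percentile on any array: Barhl2, Dlx1, Dlx6, Meox1, Meox2, Nkx2-2, Nkx6-1, Nkx6-2 and Six6. A filter that asked for 3 arrays above that percentile kept 42 of the 53 members, and the tests below used all 53.

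**Figure D1:**
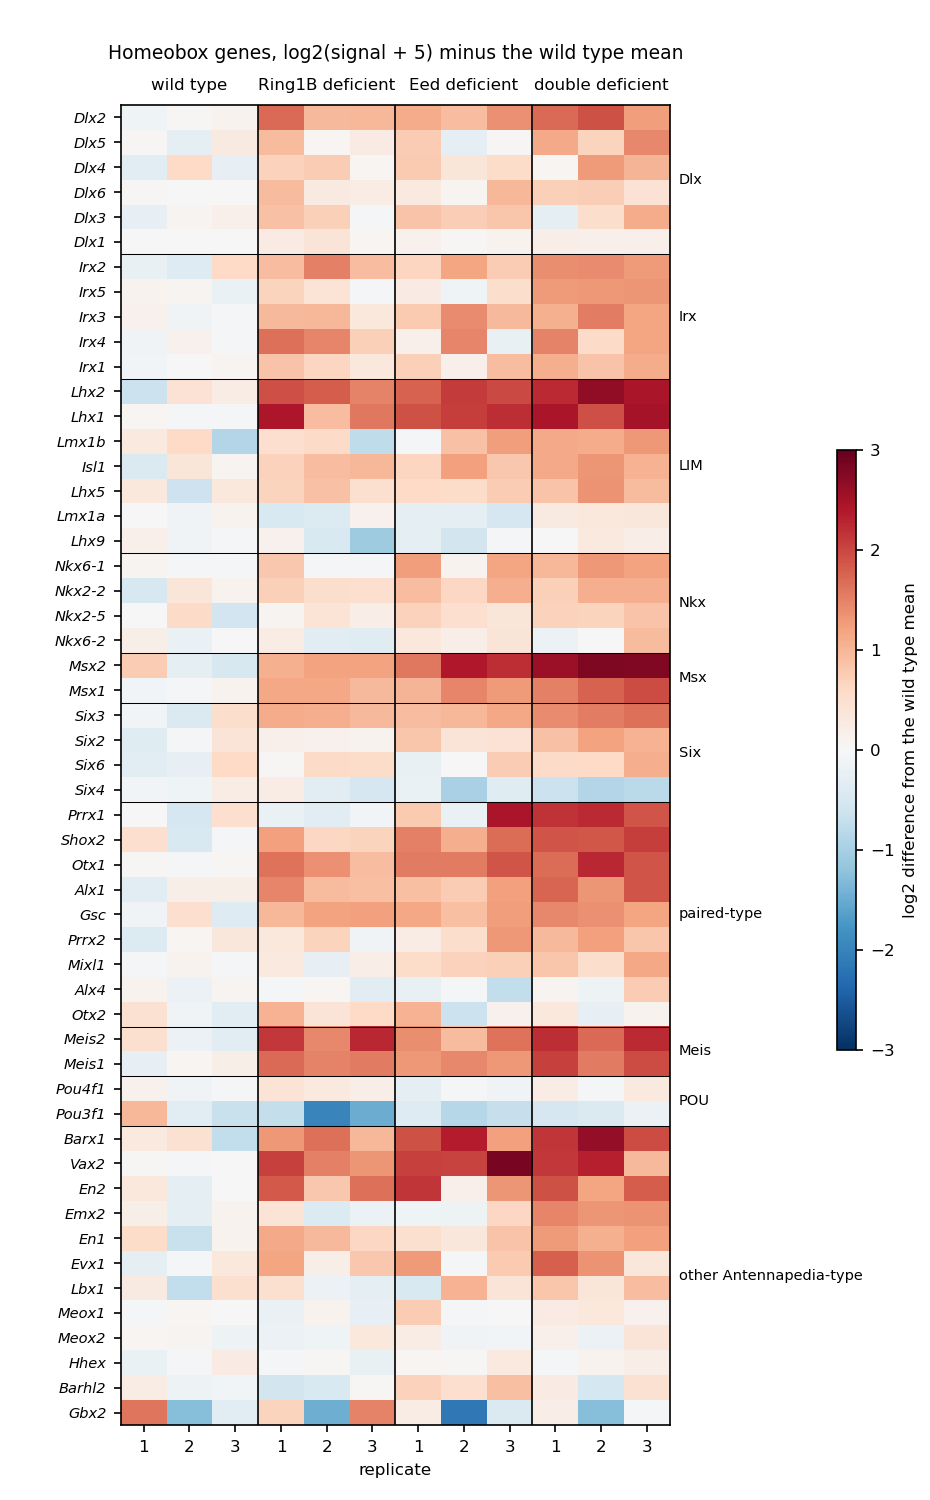
Each row is 1 of the 53 homeobox genes and each column 1 of the 12 arrays, grouped by genotype, and the colour is log2(signal + 5) of the array minus the mean of the 3 wild type arrays. The double deficient columns are the warmest for most genes, and Six4 and Pou3f1 are among the few genes that are cooler than wild type.

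Members rose in each mutant, and the count was highest in the double mutant. In Ring1B deficient cells 14 of the 53 rose and 0 fell, in a background where 3.23% of all genes rose and 1.5% fell. In Eed deficient cells 17 rose and 0 fell, against 7.48% and 3% of all genes. In double deficient cells 30 rose and 1 fell, against 15.1% and 8.03%. The median log2 change of the 53 members was 0.50, 0.65 and 1.08 in the 3 mutants, beside -0.01, 0.03 and 0.13 for all genes. The double deficient mean was the highest of the 4 for 41 members (77.4%, against 43.4% of all genes), and wild type was the lowest for 39 (73.6%, against 32.8%).

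The arrays were also compared without a test. All 3 mutant arrays lay above all 3 wild type arrays for 26 members in the Ring1B mutant, 27 in the Eed mutant and 38 in the double mutant, where the same held for 10.6%, 16% and 25.4% of all genes. The scaling of the arrays moved the count over all genes in double deficient cells: 2752 rose and 1461 fell with the deposited scaling, 2140 and 1671 after quantile normalization, and 1652 and 2948 after centring each array on its median, with the median of all genes at 0.13, -0.002 and -0.12. The set itself had 30, 27 and 27 members that rose and 1 that fell under each. The calls of Dlx5, Lhx5 and Prrx2 were the ones lost, under both other scalings.

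**Figure D2:**
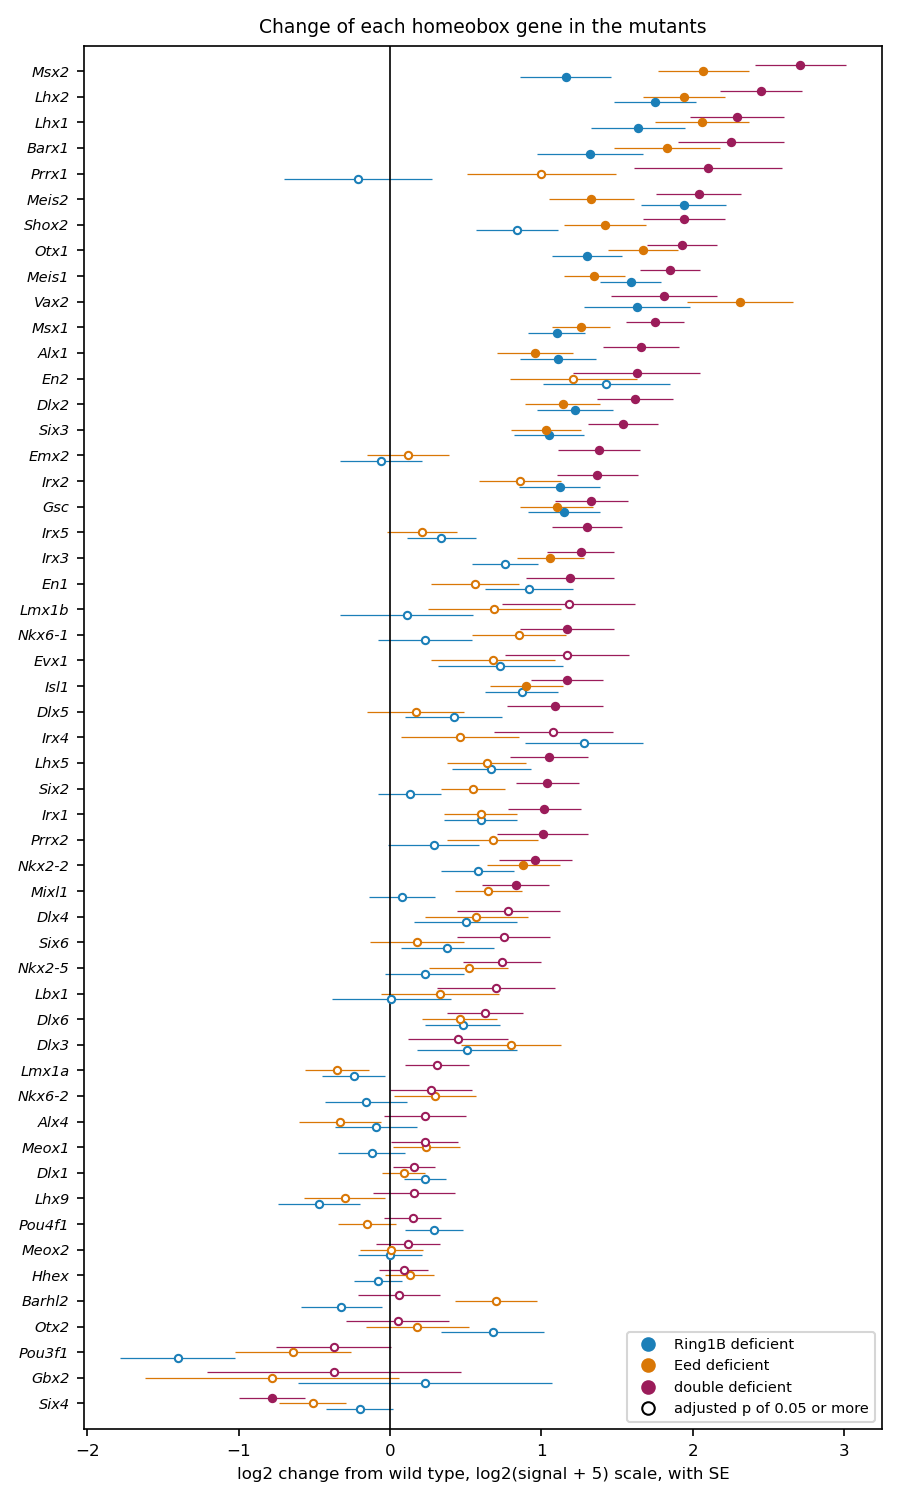
Points are the log2 changes against wild type of the 53 members in each of the 3 mutants, with bars of 1 standard error of the limma model and filled points for called changes. Most points lie to the right of 0 in all 3 mutants, and the largest is Msx2 in double deficient cells at 2.71.

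Called in all 3 mutants were 13 members, Alx1, Barx1, Dlx2, Gsc, Lhx1, Lhx2, Meis1, Meis2, Msx1, Msx2, Otx1, Six3 and Vax2, where 2.3% of all genes rose in all 3. All 3 comparisons share the wild type arrays. A further 12 were called only in the double mutant (Dlx5, Emx2, En1, En2, Irx1, Irx5, Lhx5, Mixl1, Nkx6-1, Prrx1, Prrx2 and Six2), 4 in Eed and double deficient cells (Irx3, Isl1, Nkx2-2 and Shox2), and Irx2 in Ring1B and double deficient cells. Six4 fell in double deficient cells, and 22 members were not called in any mutant. A call in one mutant and none in another does not show that they differ, and the direct tests between mutants are given further on.

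The calls in the single mutants were the less stable ones. Without single arrays the number that rose in Ring1B deficient cells went to 7 without Ring1B deficient replicate 1, 9 without its replicate 2 and 9 without wild type replicate 1. Lhx1, Lhx2, Meis1, Meis2, Msx1 and Otx1 were called there whichever array was left out. Alx1 and Dlx2 were lost without Ring1B deficient replicate 1 or wild type replicate 1 (adjusted p between 0.056 and 0.087), and Vax2 without those or wild type replicate 3 (between 0.051 and 0.069). Gsc was lost without Ring1B deficient replicate 2 or 3 or wild type replicate 1 or 3 (between 0.053 and 0.06), Six3 without any Ring1B deficient array or wild type replicate 1 or 2 (between 0.058 and 0.069), and Irx2 without any Ring1B deficient array, wild type replicate 1 or 2 or double deficient replicate 1 (between 0.051 and 0.13). Barx1 stayed called only in the fits that dropped replicate 2 of wild type or replicate 2 or 3 of Eed deficient cells, and Msx2 only in those that dropped replicate 1 of wild type or replicate 1 or 2 of Eed deficient cells. Otherwise their adjusted p was between 0.056 and 0.17.

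In Eed deficient cells 12 of the 17 calls held without any single array. Alx1 was lost without Eed deficient replicate 1 or 3 or wild type replicate 1, Dlx2 and Six3 without Eed deficient replicate 3, Isl1 without Eed deficient replicate 2 or 3 or wild type replicate 1 or 3, and Nkx2-2 without Eed deficient replicate 1 or 3 or wild type replicate 1 or 3, with adjusted p between 0.051 and 0.13. In double deficient cells 24 of the 31 calls held. Each of the double deficient arrays ended the call of Prrx2 when left out, as did wild type replicates 1 and 2. Dlx5 was lost without double deficient replicate 1 or 3 or wild type replicate 1 or 2, En2 without double deficient replicate 1 or 3, Mixl1 without replicate 3, Lhx5 and Nkx6-1 without replicate 2, and Six4 without double deficient replicate 2 or 3 or wild type replicate 3. Their adjusted p was then between 0.05 and 0.11.

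The LIM-homeodomain genes, whose products pair a homeodomain with LIM zinc fingers and direct neuronal, limb and head development, gave some of the largest changes. Of the 7 members, 2 rose in the Ring1B mutant, 3 in the Eed mutant and 4 in the double mutant. Lhx2, needed for forebrain and eye formation, read 2.13, 10.2 and 7.98 on the wild type arrays, 38, 34.5 and 26.4 in Ring1B deficient, 33.3, 42.6 and 38.9 in Eed deficient, and 48.2, 65.8 and 55.9 in double deficient cells. All 9 mutant arrays stood above the wild type arrays, and the double deficient arrays stood above all others. The log2 changes were 1.75, 1.94 and 2.45 (SE 0.27), with adjusted p of 0.0023, 0.00061 and 4.3e-05.

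Lhx1, a factor of the head organiser, was at 1.62, 1.25 and 1.23 in wild type cells, below the 40th percentile of all 3 arrays. It read 29, 7.14 and 13.9 in Ring1B deficient, 18.8, 22 and 24.4 in Eed deficient, and 29.8, 19.3 and 30.7 in double deficient cells. The mutant groups overlapped each other and none overlapped wild type, with log2 changes of 1.64, 2.06 and 2.29 (SE 0.31; adjusted p = 0.0098, 0.0011 and 0.00023). Isl1, which marks motor neurons and cardiac progenitors, had means of 15.9 ± 5.4, 32.4 ± 4.12, 33.7 ± 8.38 and 40.9 ± 4.9 (SD, n = 3), and rose in Eed deficient and double deficient cells (0.90 and 1.17, adjusted p = 0.029 and 0.0034). Lhx5 rose in double deficient cells alone (1.05, adjusted p = 0.012), from 5.69 ± 3.52 to 16.4 ± 3.92, at low signals throughout. Lmx1a, Lmx1b and Lhx9 were not called.

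Lhx9 depended on the probe set. The tested one, the brightest of its 4, had means of 12.6, 8.45, 9.46 and 14.8 in wild type, Ring1B, Eed and double deficient cells and a log2 change of 0.16 in the double mutant (adjusted p = 0.71). A pair of dimmer probe sets for the same gene read 3.3 and 2.54 in wild type and 20.1 and 20.6 in double deficient cells. In the same model over all 34945 single-symbol probe sets both were called in Eed deficient cells (1.12 and 1.27) and in double deficient cells (1.59 and 1.73, adjusted p = 0.00054 and 0.00027).

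The Msx genes, targets of bone morphogenetic protein signalling in limb, neural crest and the borders of the neural plate, both rose in all 3 mutants. Msx2 was at 19.1, 6.65 and 5.16 in wild type, 24.5, 28 and 27.8 in Ring1B deficient, 37.7, 69.9 and 60.4 in Eed deficient, and 78.4, 93.7 and 92.2 in double deficient cells. The 4 genotypes formed 4 steps with no overlap between neighbours. The log2 changes against wild type were 1.16, 2.07 and 2.71 (SE 0.30), with adjusted p of 0.047, 0.00089 and 5e-05, and the double mutant exceeded Ring1B deficient cells by 1.55 (adjusted p = 0.0059). Its difference from Eed deficient cells, 0.64, was not called (adjusted p = 0.32). Msx1 had means of 17.3 ± 1.61, 42.9 ± 3.23, 48.7 ± 8.31 and 70.4 ± 11.6 (SD, n = 3), and it rose by 1.10, 1.26 and 1.75 (adjusted p = 0.005, 0.0011 and 3.7e-05). In the limma model over all single-symbol probe sets, the other Msx1 probe set was not called in any mutant (0.41, 0.37 and 0.75). The other Msx2 probe set was called only in double deficient cells (0.36, 0.7 and 1.12). In that model the tested Msx2 probe set was not called in Ring1B deficient cells (adjusted p = 0.062).

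Barx1, expressed in facial and stomach mesenchyme, read 17.1, 19.7 and 5.93 in wild type, 40, 52 and 31.4 in Ring1B deficient, 63.4, 87.6 and 37.4 in Eed deficient, and 75, 108 and 65.4 in double deficient cells. No mutant array overlapped wild type, and replicate 2 was the highest array in all 4 genotypes. The changes were 1.32, 1.83 and 2.25 (SE 0.35; adjusted p = 0.049, 0.0049 and 0.00058).

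The 6 Dlx genes, which act in the branchial arches, limbs and ventral forebrain and lie in the genome as neighbouring pairs, differed in signal level and in calls. Dlx2 rose in every mutant, from 4.2, 5.21 and 5.7 in wild type to 27.5, 14.6 and 14.9 in Ring1B deficient, 16.7, 14.1 and 21.1 in Eed deficient, and 27.4, 32.6 and 18.9 in double deficient cells. The mutant groups overlapped each other and all were above wild type, with changes of 1.22, 1.14 and 1.62 (SE 0.25; adjusted p = 0.016, 0.012 and 0.00063). Its neighbour Dlx1 read 1.99 or less on all 12 arrays and was not called. Its means were 0.381, 1.35, 0.717 and 1.03 in wild type, Ring1B, Eed and double deficient cells, with every mutant array above wild type. Dlx5 rose in double deficient cells (1.09, adjusted p = 0.026), from 4.97 ± 1.89 to 16.5 ± 5.59 (SD, n = 3). Its neighbour Dlx6 read 6.08 or less on all arrays and was not called. The means of Dlx6 were 0.548, 2.98, 2.93 and 3.61 in the same order, again with every mutant array above wild type. At such signals the added 5 shrinks a change, so these pairs do not show that neighbours respond differently. The third pair, Dlx3 and Dlx4, had changes in double deficient cells of 0.45 and 0.78 that were not called.

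Meis1 and Meis2, homeodomain partners of Hox and Pbx proteins, rose in all 3 mutants. Meis2 read 33.6, 19.7 and 17.4 in wild type, 115, 70.9 and 127 in Ring1B deficient, 67.5, 48.7 and 81.2 in Eed deficient, and 123, 84.4 and 125 in double deficient cells. Every mutant array was above every wild type array, and the Eed deficient arrays were below the double deficient ones. Its change in Ring1B deficient cells, 1.94 (SE 0.28, adjusted p = 0.0013), was the largest of the set in that mutant, beside 1.33 in the Eed mutant and 2.04 in the double mutant (adjusted p = 0.0087 and 0.00022). All 4 probe sets for Meis2 were called higher in double deficient cells. In Eed deficient cells none of the untested ones was called (1.24, 0.46 and 0.68). In Ring1B deficient cells a change of 2.34 was called among them and those of 1.18 and 0.95 were not. With the mean of all Meis2 probe sets the call in Eed deficient cells was lost (adjusted p of limma 0.078).

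Meis1 was at 5.71, 8.2 and 9.15 in wild type, 36, 30.4 and 32.3 in Ring1B deficient, 25.9, 29.3 and 25.9 in Eed deficient, and 47, 32 and 43.6 in double deficient cells. Its arrays were tight, with changes of 1.59, 1.35 and 1.85 (SE 0.20; adjusted p = 0.00059, 0.0011 and 4.1e-05). Of its other probe sets, 1 was called in double deficient cells (1.14) and 1 was flat at 16.6, 12.5, 14.4 and 17.2 in the 4 genotypes. That flat probe set is the brightest in wild type cells, and choosing it would turn the change to -0.50 in Ring1B deficient and -0.15 in Eed deficient cells, neither of them called. The call in double deficient cells would be lost too (0.05, adjusted p of limma 0.94). With the mean of all Meis1 probe sets the calls in Ring1B and Eed deficient cells were lost (adjusted p of limma 0.12 and 0.072).

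**Figure D3:**
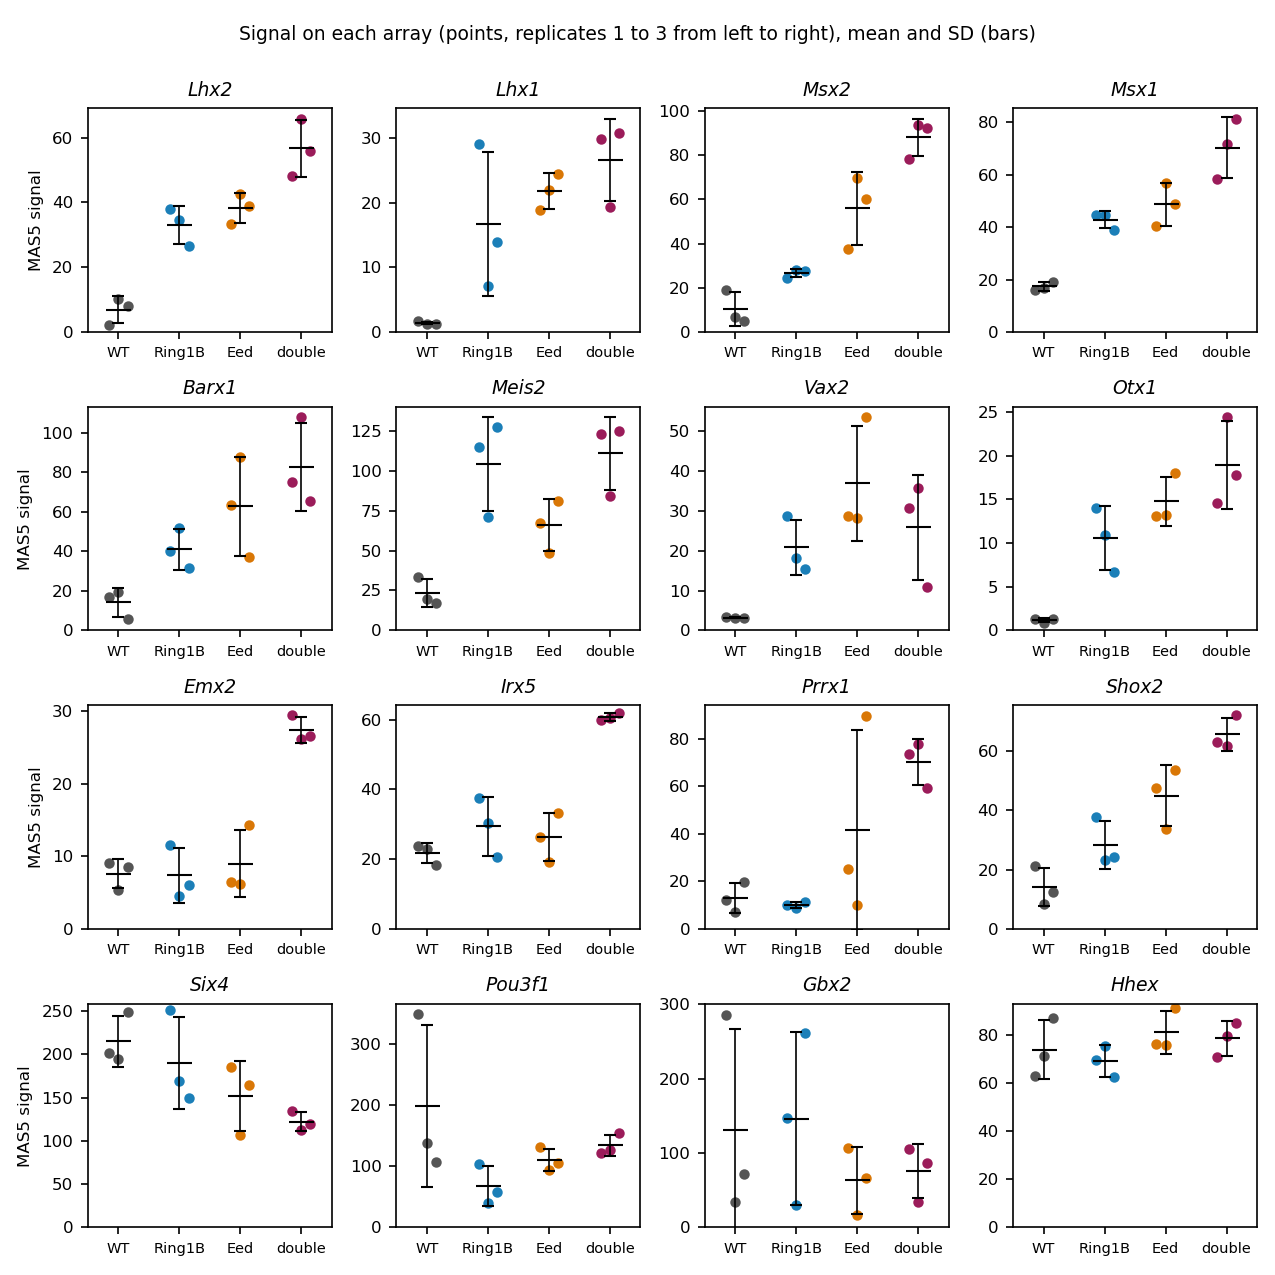
Signal on each array, on a linear axis from 0, for 16 homeobox genes in the 4 genotypes, with replicates 1 to 3 from left to right and bars for the mean and SD, which are clipped at 0 where the SD exceeds the mean. Msx2 climbs in steps over the 4 genotypes, Emx2 and Irx5 stand apart in the double deficient cells, and Prrx1 is split between the Eed deficient arrays.

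Several genes of the anterior neural plate, eye and forebrain rose. Otx1, a relative of Otx2 that acts in the forebrain and inner ear, read 1.31, 0.893 and 1.34 in wild type, 14, 10.9 and 6.72 in Ring1B deficient, 13.1, 13.2 and 18 in Eed deficient, and 14.6, 24.4 and 17.8 in double deficient cells. Its highest signal was 24.4, and wild type overlapped no mutant group (changes of 1.30, 1.67 and 1.93, SE 0.23; adjusted p = 0.0059, 0.0006 and 8.1e-05). Six3, which patterns the forebrain and eye field, read 9.6, 6.42 and 17.2 in wild type, 28.5, 27.7 and 25.3 in Ring1B deficient, 24.4, 26 and 29.4 in Eed deficient, and 36.4, 39.8 and 43.7 in double deficient cells. The single mutants overlapped each other and lay between wild type and the double mutant (1.05, 1.03 and 1.54; adjusted p = 0.021, 0.014 and 0.00051). Neither of the other Six3 probe sets was called in any mutant. Their changes were 0.27, 0.3 and 0.9 on the brighter and 0, 0.03 and 0.1 on the dimmer. With the mean of all Six3 probe sets the calls in Ring1B and Eed deficient cells were lost (adjusted p of limma 0.28 and 0.17).

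Vax2, a gene of the ventral retina, was steady in wild type at 3.32, 2.99 and 3.17. It read 28.7, 18.2 and 15.5 in Ring1B deficient, 28.8, 28.3 and 53.5 in Eed deficient, and 30.7, 35.8 and 11 in double deficient cells. The double deficient arrays overlapped those of both single mutants, and Vax2 was one of the 12 members whose double deficient mean was not the highest of the 4. The changes were 1.63, 2.31 and 1.81 (SE 0.35; adjusted p = 0.017, 0.001 and 0.0023).

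Emx2, a factor of the dorsal forebrain and urogenital system, behaved otherwise. It read 9.02, 5.3 and 8.47 in wild type, 11.6, 4.47 and 6.03 in Ring1B deficient, 6.5, 6.2 and 14.3 in Eed deficient, and 29.5, 26.2 and 26.6 in double deficient cells. Both single mutants overlapped wild type, and all double deficient arrays were above the other 9. The change was 1.38 against wild type, 1.43 against Ring1B deficient and 1.26 against Eed deficient cells (SE 0.27; adjusted p = 0.0027, 0.0048 and 0.043).

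The 5 Irx genes, Iroquois factors that subdivide neural, cardiac and other fields and sit in clusters in the genome, had changes from 1.02 to 1.37 in double deficient cells, where 4 of 5 rose. Irx2 had the largest change. It read 20.2, 17.5 and 39.8 in wild type, 50.4, 79.3 and 50.4 in Ring1B deficient, 40.9, 61.6 and 44.9 in Eed deficient, and 72.3, 73.9 and 66.4 in double deficient cells. No mutant array fell below the highest wild type array, and the changes were 1.12, 0.86 and 1.37 (SE 0.27; adjusted p = 0.032, 0.059 and 0.0027). Irx4, which lies beside Irx2, was the member not called there (1.08, adjusted p = 0.063).

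Irx3 read 50.1, 42.1 and 44.1 in wild type, 94.2, 95 and 57.4 in Ring1B deficient, 81.2, 129 and 94.5 in Eed deficient, and 101, 140 and 110 in double deficient cells. All mutant arrays were above wild type (0.76, 1.06 and 1.26; SE 0.22; adjusted p = 0.076, 0.009 and 0.0014). Its neighbour Irx5 read 23.9, 23 and 18.4 in wild type, 37.5, 30.3 and 20.5 in Ring1B deficient, 26.4, 19.3 and 33.2 in Eed deficient, and 59.8, 60.5 and 61.9 in double deficient cells. As with Emx2, both single mutants overlapped wild type and the double mutant stood clear of all, by 1.30 against wild type, 0.96 against Ring1B deficient and 1.10 against Eed deficient cells (SE 0.23; adjusted p = 0.0015, 0.016 and 0.042).

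The primitive streak and organiser factors Gsc, Mixl1 and Evx1 all had changes above 0 in double deficient cells. Gsc, expressed in the organiser, read 2.38, 6.33 and 1.08 in wild type, 11, 13.5 and 13.8 in Ring1B deficient, 12.9, 9.8 and 13.9 in Eed deficient, and 16.7, 15.7 and 13.1 in double deficient cells. All 3 mutants were above wild type at low signals (1.15, 1.10 and 1.33; adjusted p = 0.015, 0.01 and 0.0014). Mixl1, a mesendoderm gene, rose in double deficient cells (0.83, adjusted p = 0.015), from 14.9 ± 1.2 to 30.9 ± 7.79 (SD, n = 3). Evx1, a gene of the posterior streak, had a change of 1.17 there that was not called (adjusted p = 0.054).

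Of the 6 members with the highest wild type signals, Irx3 rose, Six4 fell and the others were not called in any mutant. Otx2, which marks the epiblast and anterior neural fate, read 432, 295 and 247 in wild type, 655, 414 and 481 in Ring1B deficient, 658, 201 and 348 in Eed deficient, and 393, 266 and 338 in double deficient cells. The wild type arrays overlapped all 3 mutants, and its changes of 0.68, 0.18 and 0.05 (SE 0.34) were not called. Hhex, an endoderm and blood factor, read 63.1, 71.5 and 87.2 in wild type, 69.6, 75.7 and 62.6 in Ring1B deficient, 76.3, 75.9 and 91.5 in Eed deficient, and 71, 79.8 and 85.2 in double deficient cells. All 3 mutants overlapped wild type, with changes of -0.08, 0.13 and 0.09 (SE 0.16; adjusted p = 0.88, 0.7 and 0.74).

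Six4, a muscle and sensory organ factor, was the only member that fell. It read 201, 195 and 249 in wild type, 251, 169 and 150 in Ring1B deficient, 185, 107 and 165 in Eed deficient, and 135, 113 and 119 in double deficient cells. The double deficient arrays lay below all wild type arrays, and the change was -0.78 (SE 0.22, adjusted p = 0.021). A further Six4 probe set went from 215 in wild type to 108 in the Eed mutant and 85.8 in the double mutant and was called lower in both (-0.98 and -1.30). Its relatives Six2, a kidney progenitor factor, and Six3 rose in double deficient cells, Six2 by 1.04 (adjusted p = 0.0035).

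Pou3f1, which is expressed in the epiblast and in glia, read 350, 139 and 107 in wild type, 104, 40.3 and 58.4 in Ring1B deficient, 131, 94.4 and 106 in Eed deficient, and 122, 127 and 154 in double deficient cells. The Ring1B deficient arrays were all below wild type, yet the change of -1.40 was not called (SE 0.38, adjusted p = 0.056), and wild type replicate 1 was more than the sum of the other wild type arrays. Left without wild type replicate 3 or without Ring1B deficient replicate 1, the change was -1.74 with an adjusted p of 0.031. Over all alternative fits it ran from -1.74 to -0.9, with adjusted p of limma from 0.0077 to 0.22. Gbx2, a hindbrain boundary factor that ES cells also express, read 286, 34.1 and 71.6 in wild type, 147, 29.5 and 262 in Ring1B deficient, 107, 16.5 and 66.2 in Eed deficient, and 105, 34.6 and 87.1 in double deficient cells. Replicate 2 was the lowest in every genotype, and the changes of 0.23, -0.78 and -0.37 were all smaller than their SE of 0.84.

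En2, which acts at the border of midbrain and hindbrain, was also lowest in replicate 2 of each genotype, with 46.3, 28.5 and 36 in wild type, 142, 67.4 and 125 in Ring1B deficient, 178, 40.9 and 99.2 in Eed deficient, and 149, 88.3 and 141 in double deficient cells. Ring1B deficient and double deficient arrays were above wild type, and only the double deficient change of 1.63 was called (adjusted p = 0.013), beside 1.43 and 1.21 in the single mutants (adjusted p = 0.075 and 0.088). Without Eed deficient replicate 2 both single mutants were called, with adjusted p of 0.02 and 0.0099. With the replicate number as a block in limma both were also called (adjusted p = 0.0014 and 0.0023). No label says that a number marks a shared batch. Dlx5, Emx2 and Shox2 were the other members lowest in replicate 2 of all 4 genotypes. These 5 make 9.43% of the set, near the 8.01% of all genes.

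Of the 4 Nkx genes, which pattern the ventral neural tube and the heart, Nkx2-2 rose in Eed deficient (0.88, adjusted p = 0.033) and double deficient cells (0.96, adjusted p = 0.011) and Nkx6-1 in double deficient cells. Nkx6-1 had the largest change of the family, from 1.23, 0.638 and 0.783 in wild type to 5.3, 0.651 and 0.614 in Ring1B deficient, 9.07, 1.33 and 8.46 in Eed deficient, and 6.76, 9.53 and 8.54 in double deficient cells. These are signals below the 40th percentile on all arrays, so the call (1.17, SE 0.31, adjusted p = 0.015) rests on low signals. The calls of Nkx2-2 do so too. Its means were 4.54, 8.89, 12.2 and 13.2 in wild type, Ring1B, Eed and double deficient cells, below that percentile on all arrays. Nkx2-5 reached 34.2 ± 2.95 in double deficient cells from 19.8 ± 9.69 (SD, n = 3) and was not called (0.74, adjusted p = 0.058).

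Shox2, a limb and heart pacemaker factor, read 21.1, 8.4 and 12.6 in wild type, 37.7, 23.2 and 24.2 in Ring1B deficient, 47.5, 33.7 and 53.6 in Eed deficient, and 63.1, 61.7 and 72.1 in double deficient cells. All mutant arrays were above wild type and the double mutant was above all, with changes of 0.84, 1.42 and 1.94 (SE 0.27; adjusted p = 0.1, 0.0045 and 0.00024). Prrx1, a limb mesenchyme factor that fibroblasts also express, read 12.3, 7.32 and 19.9 in wild type, 10.2, 8.84 and 11.4 in Ring1B deficient, 25.1, 10.1 and 89.5 in Eed deficient, and 73.8, 77.8 and 59.5 in double deficient cells.

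The high Eed deficient array for Prrx1 was replicate 3. Only the double mutant was called against wild type (2.10, SE 0.49, adjusted p = 0.0083), and it exceeded Ring1B deficient cells by 2.31 (adjusted p = 0.0091). Without Eed deficient replicate 3 it also exceeded Eed deficient cells, by 1.81 (adjusted p = 0.027), against 1.10 (adjusted p = 0.3) with it, and without Eed deficient replicate 2 the change from wild type to Eed deficient cells was called (1.61, adjusted p = 0.037). Of the 6 Prrx1 probe sets, 3 were called higher in double deficient cells. Prrx2, its close relative, had means of 22.4 ± 6.94, 28.6 ± 8.87, 40.1 ± 18.1 and 49.4 ± 7.55 (SD, n = 3), and rose in double deficient cells (1.01, adjusted p = 0.028). Alx1, a cranial mesenchyme factor, went from 5.82 ± 2.05 to 29.2 ± 6.7 there (1.66, adjusted p = 0.00043) and rose in both single mutants (1.11 and 0.96). In the model over all single-symbol probe sets, the other Alx1 probe set was called only in double deficient cells (1.18, 0.4 and 1.64 in the 3 mutants). With the mean of the Alx1 probe sets the call in Eed deficient cells was lost (adjusted p of limma 0.14). Alx4, a relative of Alx1, was not called in double deficient cells (0.23, adjusted p = 0.58).

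Fibroblast markers moved with the same arrays. Of the 20 markers 1 rose in the Ring1B mutant, 6 in the Eed mutant and 15 in the double mutant. All 20 were highest in replicate 3 among the Eed deficient arrays, at a median of 1.57 log2 above the mean of the others, where the median over all genes was 0.02. For Prrx1 and Prrx2 the same difference was 2.15 and 0.92, for Emx2 and Irx5 0.77 and 0.47, and for Alx1 and Shox2 0.39 and 0.38. For the 53 members the median was 0.19, with 25 members (47.2%, against 30.4% of all genes) highest in replicate 3. In Ring1B deficient cells, where 14 members rose, the fibroblast sum was 1082 to 1519, beside 1303 to 1537 in wild type. In wild type cells 3 or 4 of the 20 markers were below the array's 40th percentile, and in double deficient cells 0 or 1. The part of such cells in the change of any member, Emx2, Irx5, Shox2, Prrx1, Prrx2 and Alx1 included, was not tested in any mutant.

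**Figure D4:**
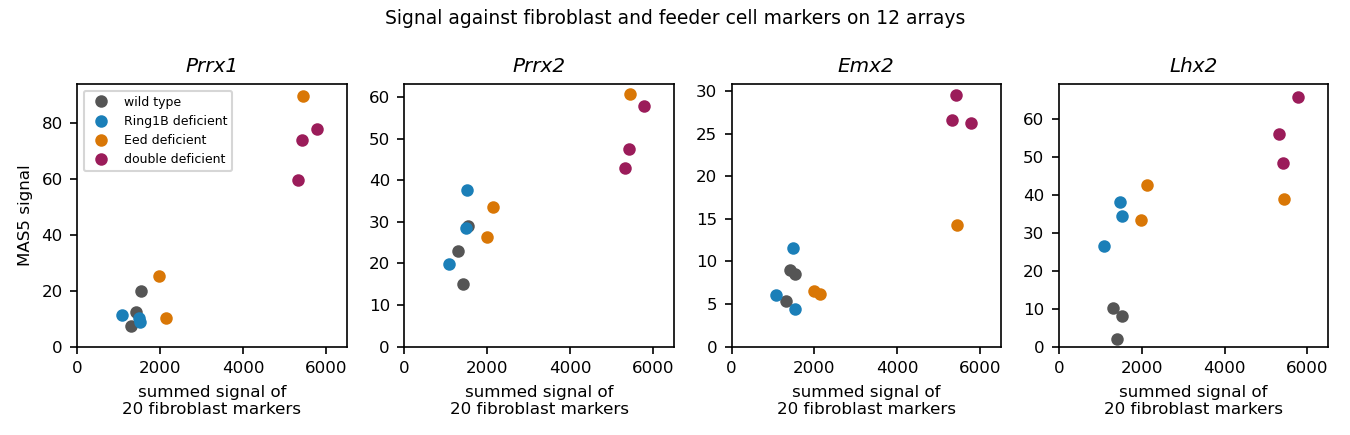
Summed signal of 20 fibroblast and feeder cell markers (x axis) against the signal of Prrx1, Prrx2, Emx2 and Lhx2 (y axis) on each of the 12 arrays, coloured by genotype. Eed deficient replicate 3, at a sum of 5444, sits with the double deficient arrays, and for Prrx1 its signal of 89.5 is above theirs.

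The double mutant was compared with each single mutant to see whether loss of the other protein added to the change. Against Ring1B deficient cells 8 members rose and 0 fell, against 9.39% and 4.19% of all genes: Emx2, Irx5, Mixl1, Msx1, Msx2, Prrx1, Shox2 and Six2. The share of the set that rose, 15.1%, was nearer the background than in the comparisons with wild type. All double deficient arrays lay above all Ring1B deficient arrays for 23 of the 53 members, against 23.9% of all genes. They lay below for 2 members, and for 2045 of all 18193 genes. The median member was higher by 0.41, beside 0.13 for all genes, by 0.19 beside 0.013 after quantile normalization, and by 0.16 beside -0.119 after median centring.

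Only Emx2, Msx2 and Prrx1 kept that call without any single array. The count was 3 without double deficient replicate 3 and 5 without Ring1B deficient replicate 2 or 3. Irx5 was lost without double deficient replicate 3 or Ring1B deficient replicate 3, Shox2 without those or Ring1B deficient replicate 2, and Six2 without double deficient replicate 2 or 3. Mixl1 was lost without any 1 of 6 arrays, wild type replicate 3, Ring1B deficient replicates 2 and 3, Eed deficient replicate 3 and double deficient replicates 1 and 3, and Msx1 without any Ring1B deficient array, Eed deficient replicate 3 or double deficient replicate 2 or 3. Their adjusted p was then between 0.051 and 0.15.

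Against Eed deficient cells Emx2 and Irx5 rose and 0 members fell, against 0.748% and 0.528% of all genes, and 0.5% of all genes were higher in the double mutant than in each other genotype, as these were. The median member was higher by 0.41, beside 0.08 for all genes. All double deficient arrays lay above all Eed deficient arrays for 17 of the 53 members, against 14.9% of all genes. They lay below for 1 member, and for 1426 of all 18193 genes. The calls of Emx2 and Irx5 against Eed deficient cells were fragile. Emx2 was lost without wild type replicate 3, Ring1B deficient replicate 3, Eed deficient replicate 1 or 2, or any double deficient array, and Irx5 without wild type replicate 2 or 3, Ring1B deficient replicate 2, Eed deficient replicate 1 or 2, or any double deficient array, with adjusted p between 0.052 and 0.16. Both were also lost under quantile scaling (adjusted p = 0.061 and 0.051).

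The single mutants were compared directly. Between Eed deficient and Ring1B deficient cells 0 members were called in either direction, against 2% and 0.704% of all genes, and limma gave 7 members an unadjusted p under 0.05, where 15.4% of all genes had one. The median difference was 0.07, with a range from -1.01 for Gbx2 to 1.21 for Prrx1. The order double, Eed, Ring1B, wild type held for 18 members and the order double, Ring1B, Eed, wild type for 16.

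Whether the effects of both losses added up was tested as an interaction, the step from Eed deficient to double deficient cells minus the step from wild type to Ring1B deficient cells. In that limma contrast 0 members were called, against 0.434% of all genes above and 0.704% below 0, and 13 had an unadjusted p under 0.05 (24.5%, against 14.3% of all genes). The estimate was below 0, a smaller step in cells that already lacked Eed, for 32 of the 53 (60.4%, against 42.4% of all genes), with a median of -0.27 beside 0.08. The lowest was Vax2 at -2.13 (adjusted p = 0.062), then Lhx1 at -1.41 (0.16), Lhx2 at -1.24 (0.15) and Meis2 at -1.22 (0.17). The highest was Pou3f1 at 1.67 (adjusted p = 0.17). On a log scale with a floor of 5, a gene that starts at background gives a value below 0 where both steps are equal in signal. Vax2 was called without double deficient replicate 2 (-2.38, adjusted p = 0.05).

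All probe sets of the members were tested in the same model. Of the 84, 14, 21 and 43 were called higher and 0, 1 and 2 lower in Ring1B, Eed and double deficient cells. Of all 34945 probe sets, 2.03%, 5.47% and 12.3% were called higher and 0.91%, 2.17% and 6.14% lower. No member had probe sets called in opposite directions. The other Isl1 probe set rose in all 3 mutants (1.55, 1.63 and 1.91), whereas the tested one was not called in Ring1B deficient cells.

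Promoter windows of 300 bases, from 250 bases before to 50 after the annotated start, were taken from RefSeq on build GRCm38.p6 for the 37 members that the table lists. CpG-rich promoters are the usual sites of Polycomb in mammals, and so the CpG content is given. The median ratio of observed to expected CpG was 0.79 in the members and 0.67 in all 14453 measured genes with a window. A ratio of at least 0.6 was reached by 30 of the 37 (81.1%) and by 57% of all. Among members that rose in double deficient cells it was 19 of 21 (90.5%), and among the others 11 of 16 (68.8%), and that difference was not tested. The 4-letter homeodomain core TAAT, on either strand, occurred in 23 windows (62.2%, against 46.6% of all), the palindrome TAATTA, which contains it, in 4 (10.8%, against 3.29%) and TATAAA on either strand in 5 (13.5%, against 9.87%). A match is a description of letters and not a binding site.

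The windows of 5 members are printed, chosen with their values known because they span the range of response and of CpG content, in the direction of transcription, in lower case with every CpG in capitals. Lhx2 (chr2:38339031-38339330, plus strand, 34 CpG), Barx1 (chr13:48662786-48663085, plus strand, 50 CpG) and Msx2 (chr13:53472731-53473030, minus strand, 22 CpG) rose in all 3 mutants. Prrx1 (chr1:163313601-163313900, minus strand) rose in double deficient cells and holds 6 CpG, a ratio of 0.36. Hhex (chr19:37434591-37434890, plus strand) was not called in any mutant and holds 37 CpG, a ratio of 0.88 next to 0.89 in Lhx2.
Lhx2: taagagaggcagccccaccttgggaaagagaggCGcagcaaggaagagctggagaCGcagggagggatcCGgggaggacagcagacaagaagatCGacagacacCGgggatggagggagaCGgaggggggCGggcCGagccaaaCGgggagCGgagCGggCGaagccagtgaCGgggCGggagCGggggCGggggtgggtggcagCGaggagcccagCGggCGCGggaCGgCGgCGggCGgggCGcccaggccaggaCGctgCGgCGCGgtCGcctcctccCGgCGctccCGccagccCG
Barx1: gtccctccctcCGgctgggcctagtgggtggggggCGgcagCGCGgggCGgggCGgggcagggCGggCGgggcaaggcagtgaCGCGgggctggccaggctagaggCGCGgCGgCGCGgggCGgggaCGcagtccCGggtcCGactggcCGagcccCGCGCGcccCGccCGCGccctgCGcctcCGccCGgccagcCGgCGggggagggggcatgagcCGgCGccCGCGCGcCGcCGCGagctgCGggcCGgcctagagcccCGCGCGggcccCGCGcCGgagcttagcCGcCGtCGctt
Msx2: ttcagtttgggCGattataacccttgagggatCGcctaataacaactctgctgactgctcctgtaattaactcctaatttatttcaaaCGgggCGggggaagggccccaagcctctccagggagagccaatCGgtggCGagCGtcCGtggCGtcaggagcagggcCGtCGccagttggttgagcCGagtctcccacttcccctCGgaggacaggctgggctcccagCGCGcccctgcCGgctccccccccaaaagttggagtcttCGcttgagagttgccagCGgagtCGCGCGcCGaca
Prrx1: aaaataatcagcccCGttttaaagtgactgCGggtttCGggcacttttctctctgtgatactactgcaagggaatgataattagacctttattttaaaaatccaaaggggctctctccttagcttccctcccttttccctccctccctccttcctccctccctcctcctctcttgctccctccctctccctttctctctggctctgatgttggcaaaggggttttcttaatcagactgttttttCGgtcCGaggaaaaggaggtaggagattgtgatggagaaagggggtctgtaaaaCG
Hhex: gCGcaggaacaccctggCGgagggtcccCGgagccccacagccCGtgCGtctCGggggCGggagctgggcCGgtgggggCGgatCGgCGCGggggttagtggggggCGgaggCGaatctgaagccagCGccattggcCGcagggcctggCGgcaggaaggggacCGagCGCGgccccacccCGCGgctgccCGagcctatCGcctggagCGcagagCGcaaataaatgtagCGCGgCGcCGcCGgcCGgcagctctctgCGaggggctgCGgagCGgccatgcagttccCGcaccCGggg
Msx2 and Prrx1 are among the windows with TAATTA. The window of Prrx1, which rose by 2.10 in double deficient cells, is sparse in CpG.

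**Figure D5:**
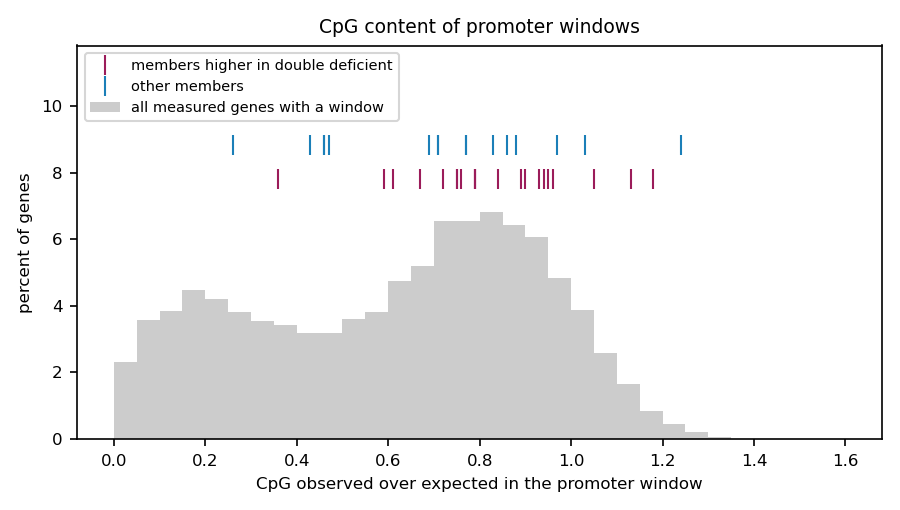
Ratio of observed to expected CpG in 300-base promoter windows (x axis), with grey bars for the percent of all 14453 measured genes with a window and a tick for each of 37 members, in separate rows for those that rose in double deficient cells and the others. Most ticks lie to the right, with 81.1% at 0.6 or above against 57% of all genes.

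Other homeobox genes outside the Hox clusters were counted for comparison, 86 of them measured. In Ring1B deficient cells 7 rose and 1 fell, in Eed deficient cells 11 rose and 0 fell, and in double deficient cells 22 rose and 2 fell, with median changes of 0.03, 0.12 and 0.27. The difference from the 53 members was not tested, since both lists were drawn up with results known. Hmx1, a cranial sensory factor, had the largest change in each mutant (2.00, 2.19 and 3.13; adjusted p = 0.00036, 9.7e-05 and 2.2e-06), from 1.68 ± 1.09 in wild type to 53.1 ± 4.51 in double deficient cells (SD, n = 3). Pitx1, a hindlimb factor, rose in double deficient cells by 2.28, and Cdx2, of trophoblast and hindgut, by 1.36, 1.59 and 1.92 in the 3 mutants. Only genes among the 4 largest called changes of a mutant are named here, and the others that were higher were Hmx3 in Ring1B deficient cells (1.16), Cdx1 and Zhx1 in Eed deficient cells (1.60 and 1.51) and Vax1 in double deficient cells (1.70). Zeb1, a zinc finger and homeodomain repressor of epithelial genes, fell in Ring1B deficient cells by 1.47 on the log2 scale (adjusted p = 0.038).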

How the data were processed

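RNA of 12 samples of mouse ES cells was hybridised to Affymetrix mouse expression arrays, 3 for each of 4 genotypes. The deposited values are intensity values on a linear scale. Per the submitters' processing notes, they are MAS5 signals of the authors, and the sources used here do not give its version or settings. From the values, the trimmed mean with 2% left off at each end was 100 on every array, and array medians ran from 19.07 to 28.01. Detection calls were not used here. The labels call the replicates biological and do not say whether they were separate cultures, so p-values measure the spread between these samples. The number of arrays limits the precision.

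Of 45101 probe sets, 64 were controls, 34945 carried 1 gene symbol in the platform annotation, 932 several and 9160 none. For each of 18193 genes 1 probe set was used, that of the highest average log2 signal over the 12 arrays, with no filter on low values. On log2(signal + 5), 1 mean per genotype was estimated with limma 3.58.1 in R 4.3.3 (lmFit, contrasts.fit, eBayes with an intensity trend), with Benjamini-Hochberg adjustment over all genes and a call at an adjusted p under 0.05. The procedure was tested on simulated data. Levels are mean ± SD of 3 arrays. Figures and promoter counts were made with Python 3.11.15, pandas 2.3.3 and matplotlib 3.10.9.

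Values on every array are given for the members with the 8 largest called changes in each mutant, for any member that fell, for the 6 brightest in wild type and for the largest of each family. Emx2, Irx5, Gsc and En2 were added after their values were seen. The members and lists were chosen with earlier results of these data known. Alternatives were quantile normalization, median centring, 1 or 16 added before log2, a filter on low values, other choices of probe set, no intensity trend, only the groups of a contrast, each array left out in turn, the replicate number as a block and, added after seeing the data, the second array of all genotypes left out.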

Additional observations from a re-analysis of the deposited data

How the results depend on the processing

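Counts are of the 53 members, and values not given here stayed within 1.5 times the main count, or within 1 SD (0.18) for a median. Quantile normalization gave a median change of 0.85 for the double mutant against wild type, 0.19 against Ring1B deficient cells, 0 members higher against Eed deficient cells and 1 below 0 in the interaction. Median centring gave 0.83 and 0.16, with 5 higher and 1 lower against Ring1B deficient cells, 0 higher against Eed deficient cells and 2 below 0 in the interaction. Adding 1 before log2 gave medians of 0.73, 0.97 and 1.5 in Ring1B, Eed and double deficient cells and -0.46 for the interaction, with 1 called below 0 there and 0 higher in the double mutant against Eed deficient cells. Adding 16 gave 0.28, 0.38 and 0.66. The filter on low values gave 1 lower in Ring1B deficient cells (Pou3f1) and 1 in the interaction (Vax2). The mean of all probe sets of a gene gave 1 lower in Eed deficient cells and 1 in the double mutant against Ring1B deficient cells. With only the groups of a contrast, 9 were higher in Ring1B deficient cells and 0 in the double mutant against Eed deficient cells. With the probe set that was brightest in wild type, Meis1 reversed to -0.50 in Ring1B deficient and -0.15 in Eed deficient cells and to 0.69 in the interaction. The call of Meis1 in double deficient cells was lost as well (0.05, adjusted p of limma 0.94). Leaving out the second array of all genotypes, an alternative chosen after seeing the data, gave 6 higher in Ring1B deficient cells, 3 in the double mutant against Ring1B deficient and 0 against Eed deficient cells. Apart from the choice of probe set and arrays left out, which alter what enters the fit, the cause was not tested.

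The replicates share only a number: of 18 same-number pairs 13 had deviations correlated above 0.1 (range -0.04 to 0.48), and 8 of 12 arrays correlated best with their own number. With the replicate number as a block, no member call was lost. Against wild type, En1, En2, Irx3, Irx4, Isl1, Otx2 and Shox2 were added as higher and 1 member (Pou3f1) as lower in Ring1B deficient cells, En2 and Irx2 as higher in Eed deficient cells, and Evx1, Irx4, Lmx1b, Nkx2-5 and Six6 as higher in double deficient cells. For En2 the adjusted p of limma was 0.0014 and 0.0023 in the single mutants. The double mutant against Ring1B deficient cells added Barx1, Nkx6-1 and Pou3f1 as higher and 2 as lower (Otx2 and Six4), Eed against Ring1B deficient cells 1 as higher (Barhl2), and the interaction 1 above 0 (Pou3f1) and 2 below (Meis2 and Vax2).

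With each array left out, members higher ranged from 7 to 16 in Ring1B deficient, 12 to 19 in Eed deficient and 27 to 32 in double deficient cells, and members lower from 0 to 1, 0 to 0 and 0 to 1. Their medians were 0.41 to 0.62, 0.6 to 0.69 and 1.03 to 1.16. The double mutant had 3 to 11 higher against Ring1B deficient cells (median 0.35 to 0.5) and 0 to 3 against Eed deficient cells (0.33 to 0.44). Eed against Ring1B deficient cells gave 0 to 1 higher (0.05 to 0.19), and the interaction 0 to 1 below 0 (-0.38 to -0.13). Calls that held under every alternative numbered 3 of 14 (Lhx1, Lhx2 and Meis2), 8 of 17 and 21 of 31 in the 3 mutants, and 2 of 8 (Emx2 and Msx2) and 0 of 2 in the double mutant against Ring1B and Eed deficient cells. Signal over background limits the lowest members, since 9 were below the 40th percentile on all arrays.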
